A study of Mus musculus with 16 samples.

Results

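Matrix metalloproteinases are zinc-dependent proteases that cut collagens and other proteins of the extracellular matrix. They are made as inactive proenzymes, are opened by other proteases, and are held in check by the tissue inhibitors of metalloproteinases (TIMPs). Neutrophils load some of them into granules as they mature in the marrow, whereas fibroblasts, endothelial cells and macrophages make others and secrete them or display them on their surface.

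The gene group described here was 10 matrix metalloproteinase symbols of the 23999 gene symbols in the count table. They were chosen by name and not by a rule on their values, but with earlier results of these data known. Mmp8 (the neutrophil collagenase), Mmp9 (gelatinase B) and Mmp25 (a membrane-anchored leukocyte enzyme) were taken as the neutrophil members. Mmp2 (gelatinase A), Mmp3 (stromelysin-1), Mmp11 (stromelysin-3), Mmp13 (a collagenase), Mmp14 (a transmembrane enzyme that activates proMmp2) and Mmp19 were taken as the stromal members, and Mmp12, the macrophage elastase, was kept apart from both. These classes are names for the cells best known to make each enzyme, and RNA from whole tissue does not show which cells made it.

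The samples were mouse myeloid sarcomas, which are solid tumours of acute myeloid leukaemia cells, and whole bone marrow infiltrated by the leukaemia. The 16 RNA-seq libraries came to 14 samples of 1 tissue from 1 mouse label, after the 2 sarcoma libraries of mouse 948 and the 2 of mouse 2721 were summed. All of the mice carried NPM1cA, a mutant nucleophosmin. The marrow group was 9 mice with NPM1cA and heterozygous SMC3 (SMC3+/-), SMC3 being a cohesin subunit. The sarcoma group was 4 mouse labels with the same NPM1cA and SMC3+/- genotype, and 1 further sarcoma, from mouse 841, carried NPM1cA with wild-type SMC3. Mice 1267 and 2721 gave both a sarcoma and a marrow. No marrow of the NPM1cA genotype with wild-type SMC3 was analysed here, and how the alleles were made or driven, the age of the mice and any treatment stand in none of the labels. The label 1268_1270 may stand for 1 animal or for 2 pooled animals. Per the labels' protocols, tumours were cut free of neighbouring tissue and went into Trizol whole, while marrow was crushed out of the bones, strained and cleared of red cells first. Tissue and handling therefore cannot be told apart.

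Marrow libraries held 12395041 to 39197660 counts, SMC3+/- sarcoma libraries 12072482 to 33605464, and the sarcoma of mouse 841 held 9797201. In 4 libraries (marrows 737, 779 and 782 and the first sarcoma library of mouse 948) transcripts over 6 kb were low. Their median log2 deviation was -2.22 to -2.09 in those marrows and -0.62 in that sarcoma library, against -0.58 to 0.53 in the other 12. The sarcoma library thus lay close to marrow 1267 (-0.58), which was counted among the 12. Sarcoma 1268_1270 stood apart in its make-up. Its summed level of 12 pan-leukocyte genes was 693 CPM (counts scaled to a common library size), against 5820 to 9647 in the other SMC3+/- sarcomas and 8232 to 15207 in the marrows, and its adipocyte markers summed to 41473 CPM against at most 525 in the other sarcomas. Leukocyte markers were thus lowest in the sarcoma with the highest fat markers. Results for the members and for their inhibitors, activators, substrates and relatives were also fitted without these libraries. Cell type marker calls and the rankings of similar genes were not. In such bulk tissue, fewer cells of a type and less RNA per cell cannot be told apart.

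Mmp3, Mmp8, Mmp12 and Mmp13 lie in 1 cluster on mouse chromosome 9, where 10 consecutive protein-coding genes are all matrix metalloproteinases. The 250 bases before the start site of these 4 genes are shown because edgeR's test called Mmp3 and Mmp12 between the tissues and did not call their neighbours Mmp8 and Mmp13. They come from RefSeq, on build GRCm38.p6, all on the plus strand: chr9:7272264-7272513 for Mmp13, chr9:7347124-7347373 for the second of 2 listed Mmp12 starts, chr9:7445572-7445821 for Mmp3 and chr9:7558179-7558428 for Mmp8. Capitals mark each match to the AP-1 motif (TGAGTCA, or TGACTCA on the other strand) or to the PEA3/ETS motif (AGGAAG, or CTTCCT on the other strand).
Mmp13: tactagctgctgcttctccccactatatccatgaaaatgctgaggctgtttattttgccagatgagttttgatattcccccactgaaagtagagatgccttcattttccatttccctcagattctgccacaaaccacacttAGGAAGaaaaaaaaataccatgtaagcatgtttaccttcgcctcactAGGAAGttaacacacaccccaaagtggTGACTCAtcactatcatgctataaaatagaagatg
Mmp12: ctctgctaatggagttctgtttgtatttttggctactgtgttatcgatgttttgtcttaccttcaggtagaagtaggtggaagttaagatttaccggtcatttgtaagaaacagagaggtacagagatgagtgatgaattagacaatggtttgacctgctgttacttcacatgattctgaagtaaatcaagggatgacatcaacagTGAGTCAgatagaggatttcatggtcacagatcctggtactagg
Mmp3: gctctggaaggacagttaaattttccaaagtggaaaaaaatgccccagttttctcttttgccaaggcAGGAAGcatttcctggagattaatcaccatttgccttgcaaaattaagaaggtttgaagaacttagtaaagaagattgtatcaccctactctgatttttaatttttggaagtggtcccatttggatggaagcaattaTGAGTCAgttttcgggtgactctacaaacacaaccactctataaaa
Mmp8: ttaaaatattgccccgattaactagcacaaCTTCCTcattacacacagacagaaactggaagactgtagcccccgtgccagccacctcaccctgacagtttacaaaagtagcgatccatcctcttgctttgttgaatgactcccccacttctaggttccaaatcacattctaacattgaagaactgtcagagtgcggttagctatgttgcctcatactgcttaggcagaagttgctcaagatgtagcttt
The AP-1 letters stood at bases -46 to -40 from the start in Mmp3, at -44 to -38 in Mmp12 and, on the opposite strand, at -35 to -29 in Mmp13. They were absent from this window of Mmp8, and from those of Mmp11, Mmp14, Mmp25 and the first Mmp12 start. Over windows of 300 bases, which reach 50 bases past the start, 1709 of 32851 RefSeq promoters (5.2%) held the AP-1 motif and 11613 (35.4%) held the PEA3/ETS motif. Promoters were found for 7 of the 10 members, 8 in all, and none was listed for Mmp2, Mmp9 and Mmp19. A match describes letters in the window and not a bound site.

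Between the tissues, Mmp2, Mmp3, Mmp12, Mmp14 and Mmp19 were higher in the SMC3+/- sarcomas than in the marrows. Mmp11 and Mmp13 did not pass the test, and neither did the 3 neutrophil members, whose fitted changes were all below 0. In edgeR's quasi-likelihood test with Benjamini-Hochberg adjustment over 14730 genes (adjusted p under 0.05), 5 of the 10 members were called higher, where 4.49% of the genes tested were. No member was called lower by edgeR (0.0543% of the genes were), and 2 members, Mmp9 and Mmp25, were lower at an unadjusted p under 0.05. DESeq2 called the same 5 members higher and called Mmp9 and Mmp25 lower. The median log2 difference was 2.54 over the members and 0.07 over all genes tested. All 10 members passed the filter on low counts, but 7 of them (all except Mmp8, Mmp9 and Mmp19) would have failed it in the marrows alone, so that their count supports nothing about the group as a whole. With libraries of a mouse summed, no SMC3+/- sarcoma overlapped any marrow for the same 5 members, which held for 4.11% of the genes tested. For no member did all of these sarcomas lie below all marrows (0.285% of the genes). The plot of levels by mouse shows this, and the plot of changes gives both tests side by side.

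**Figure D1:**
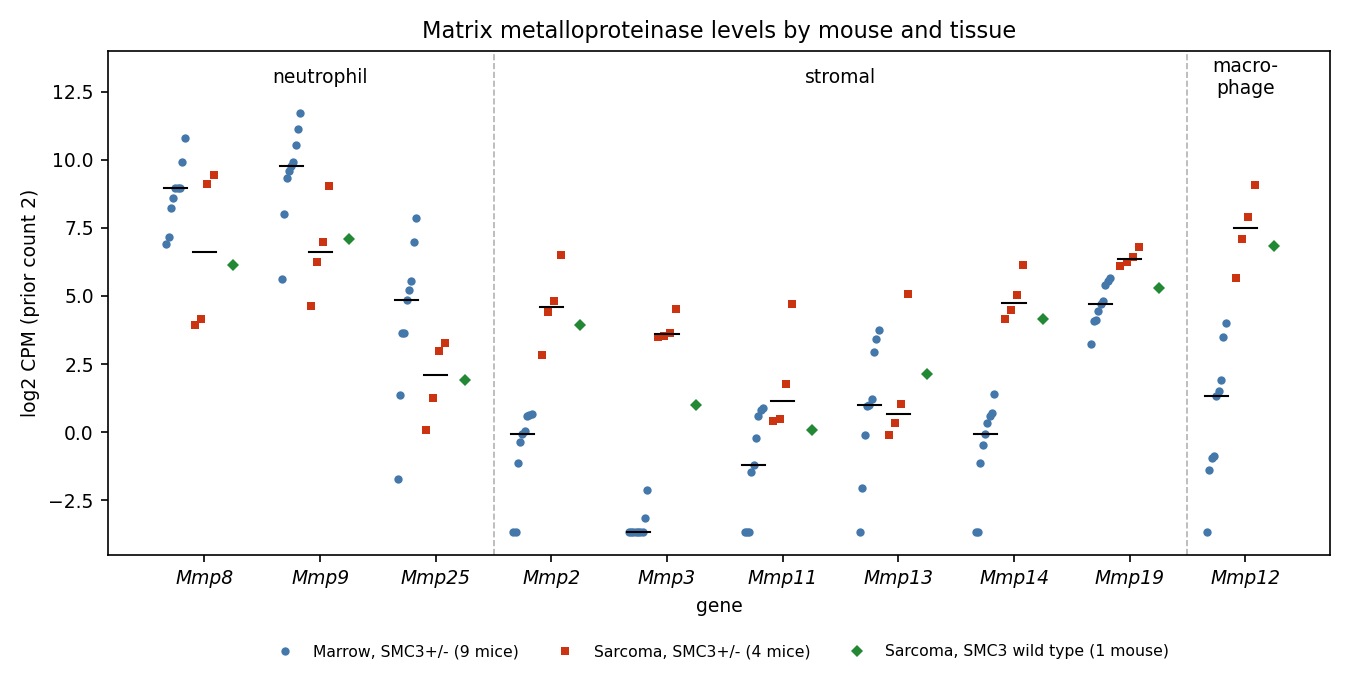
Level of each matrix metalloproteinase in each of 14 samples, as log2 CPM with a prior count of 2, with blue circles for 9 SMC3+/- marrows, red squares for 4 SMC3+/- sarcomas, a green diamond for the sarcoma of mouse 841, and black bars for medians of the first 2 groups. The red squares lie above every blue circle for Mmp2, Mmp3, Mmp14, Mmp19 and Mmp12.

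**Figure D2:**
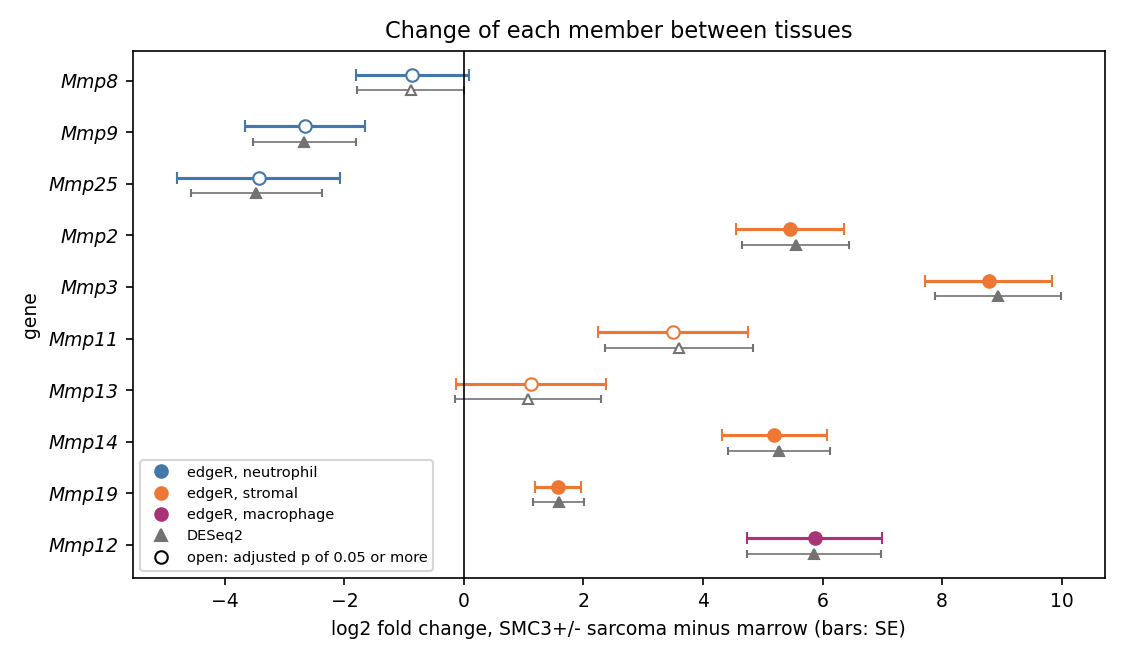
Fitted log2 fold change of each member, SMC3+/- sarcoma minus marrow, with its SE, from edgeR (circles, coloured by class) and DESeq2 (grey triangles). Filled symbols have an adjusted p under 0.05: 5 members lie to the right of 0 in both tests, and Mmp9 and Mmp25 are filled on the left in DESeq2 only.

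Mmp9, the gelatinase of the neutrophil's tertiary granules, was the neutrophil member with the highest marrow level per length. It ranged from 49.3 CPM in marrow 737 through a median of 867 to 3388 CPM in marrow 949. The SMC3+/- sarcomas had 127 CPM in mouse 948, 75.4 in mouse 1267, 522 in mouse 2721 and 24.6 in 1268_1270. The groups overlapped: 7 of the 9 marrows lay above the highest sarcoma and 1 sarcoma lay below the lowest marrow. The marrows not above the highest sarcoma were 737 and 782 (254 CPM), both among the 4 libraries low in long transcripts. The fitted log2 difference was -2.66 ± 1.01 (SE, n = 4 against 9; edgeR adjusted p = 0.202). DESeq2 gave -2.67 with an adjusted p of 0.0426. Without the 4 libraries low in long transcripts edgeR did not call Mmp9.

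Mmp25, a leukocyte enzyme held to the membrane by a lipid anchor, was the least abundant of the 3 per length. It ran from 0.225 CPM in marrow 782 through a median of 28.6 to 234 CPM in marrow 949. In the SMC3+/- sarcomas it was 7.72, 2.28, 9.51 and 0.985 CPM in mice 948, 1267, 2721 and 1268_1270. Again 7 of 9 marrows exceeded every SMC3+/- sarcoma, while marrow 782 lay below the lowest of them. The fitted log2 difference was -3.43 ± 1.37 (SE, n = 4 against 9; edgeR adjusted p = 0.238), and DESeq2 gave -3.47 with an adjusted p of 0.0346. With the mouse as a block and all mice in the fit, edgeR gave -3.68 and an adjusted p of 0.0197. That fit draws the tissue difference from mice 1267 and 2721 only and is left with 1 residual degree of freedom.

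Mmp8, the collagenase of the specific granules, split the sarcomas. It was 546 CPM in mouse 948 and 689 in mouse 2721, but 15.3 in mouse 1267 and 17.5 in 1268_1270. The marrows ranged from 120 through a median of 495 to 1773 CPM. Thus 2 sarcomas lay among the marrows and 2 lay below all 9 of them. Its fitted log2 difference was -0.86 ± 0.95 (SE, n = 4 against 9; edgeR adjusted p = 0.862), smaller than its SE. It ran from -1.57 without sarcoma 2721 to -0.32 without marrow 949, and was -2.07 by limma-voom and -2.39 with mouse blocks in the fit of all mice, with no call in any of the 28 alternatives.

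The 3 neutrophil members varied together among the 9 marrows. Over log2 CPM, Pearson's r was 0.84 for Mmp8 with Mmp9 (exact permutation p = 0.00391, adjusted over the 3 pairs 0.00586, Spearman's rho 0.77). It was 0.91 for Mmp8 with Mmp25 (exact permutation p = 0.00110, adjusted 0.00329, rho 0.85) and 0.81 for Mmp9 with Mmp25 (exact permutation p = 0.0113, adjusted 0.0113, rho 0.92). Without the 2 mice farthest from the median of the first-named gene, the 3 values of r over 7 marrows were 0.84, 0.82 and 0.93. Without marrows 737, 779 and 782, which were low in long transcripts, they were 0.80, 0.84 and 0.89 over 6 marrows, with adjusted exact permutation p of 0.0542, 0.0521 and 0.0458, so that 1 pair stayed under the threshold. The 3 genes share their libraries and scaling factors.

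Genes of the most similar pattern over the same 9 marrows were sought among 10131 genes, as a description without a test. Mmp8 ran closest to Fgr, a Src-family kinase of myeloid cells (r = 0.97), Cd101 (0.96) and Prcc (0.96). Mmp9 ran closest to Itgb2l, an integrin beta-2-like gene (0.98), Inhba, the activin A subunit (0.98), and Sept5 (0.97). Mmp25 ran closest to Rnf145 (0.98), Arap2 (0.98) and Mier3 (0.96). Marrows 737, 779 and 782, low in long transcripts, were among the 9, and the ranking was not repeated without them. Their part in these values was not tested.

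Neutrophil members were also set beside 15 late neutrophil genes, such as Ltf, Camp and S100a8, which encode granule and calcium-binding proteins of maturing neutrophils. None of the 15 passed edgeR's test between the tissues, with a median log2 difference of -0.69, and all 15 had counts in both tissues. Their summed level was 11769 to 163872 CPM in the marrows and 1595 to 116431 CPM in the SMC3+/- sarcomas. Mmp9 minus the mean log2 CPM of these genes was -2.21 to 0.87 in the marrows (median -0.39). In the sarcomas of mice 948 and 1267 it was -3.40 and -2.66, below all 9 marrows, and in those of 2721 and 1268_1270 it was -1.19 and -0.62, inside the marrow range. The same difference for Mmp8 was -2.71 to -0.34 in the marrows, and -4.96 in sarcoma 1267 against -1.30, -0.80 and -1.11 in the sarcomas of 948, 2721 and 1268_1270. For Mmp25 it was -11.25 to -3.28 in the marrows and -7.66 to -5.16 in the sarcomas. The lowest marrow value was that of marrow 782, a library with 3 Mmp25 counts and low in long transcripts. The other 8 marrows ran from -6.47 to -3.28, with marrows 737 (-6.47) and 779 (-6.32), also low in long transcripts, among them. Sarcomas 948, 1267 and 2721 (-7.43, -7.66 and -6.96) lay below all 8 but above marrow 782, while sarcoma 1268_1270 (-5.16) lay inside the range of the 8. The part of neutrophil content in the levels of Mmp8, Mmp9 and Mmp25 was not tested beyond these values, which the plot against late neutrophil markers shows.

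**Figure D3:**
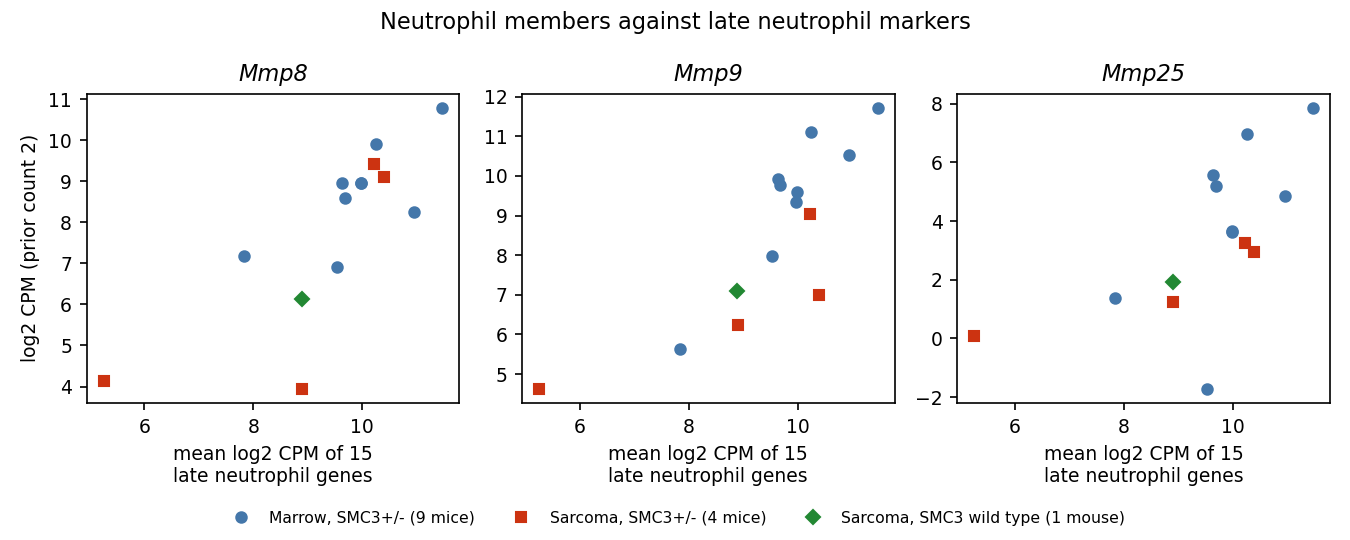
Log2 CPM of Mmp8, Mmp9 and Mmp25 (y axes, each on its own scale) against the mean log2 CPM of 15 late neutrophil genes (x axis) in 9 SMC3+/- marrows (blue), 4 SMC3+/- sarcomas (red) and the sarcoma of mouse 841 (green). The red squares of mice 948 and 1267 lie at -3.40 and -2.66 from the marker mean for Mmp9, where no marrow is lower than -2.21.

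Among the stromal members, Mmp3, which cuts proteoglycans, laminin and several proMMPs, had the largest fitted difference. It was at 0 counts in 7 of 9 marrows, and the other 2 held 8 counts together. A count of 0 allows up to 3 counts, or 0.102 to 0.282 CPM by the depth of those 7 marrows. The highest marrow had 0.153 CPM, in mouse 919. The SMC3+/- sarcomas had 12.5, 11.2, 11.4 and 22.6 CPM in mice 948, 1267, 2721 and 1268_1270, all above every marrow. The fitted log2 difference was 8.78 ± 1.06 (SE, n = 4 against 9; edgeR adjusted p = 0.000526), and it rests on the 2 marrows with counts and on the model's prior, so that its size is less certain than its direction.

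Mmp2, the gelatinase that degrades basement-membrane collagen, had 7.0, 27.8, 21.1 and 89.6 CPM in sarcomas 948, 1267, 2721 and 1268_1270. The marrows ranged from 0, in mice 737 and 782, through a median of 0.880 to 1.5 CPM. No sarcoma overlapped the marrows, and sarcoma 1268_1270 was the highest. The log2 difference was 5.46 ± 0.91 (SE, n = 4 against 9; edgeR adjusted p = 0.00302), or 4.50 without 1268_1270 (adjusted p = 0.0371).

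Mmp14, which activates proMmp2 at the cell surface, followed the same order of tissues. Its levels were 17.5, 33.0, 22.0 and 70.2 CPM in sarcomas 948, 1267, 2721 and 1268_1270, and 0 to 2.53 CPM in the marrows with a median of 0.879. Again no sarcoma overlapped the marrows. This gave a log2 difference of 5.19 ± 0.88 (SE, n = 4 against 9; edgeR adjusted p = 0.00335), or 4.64 without 1268_1270 (adjusted p = 0.0283).

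Mmp19, a widely expressed member of the family, had the smallest called change and the highest marrow level of the stromal members per length. It was 86.4, 111, 69.2 and 76.5 CPM in sarcomas 948, 1267, 2721 and 1268_1270. The marrows ran from 9.41 through a median of 26.2 to 50.8 CPM, so that the groups did not overlap with the libraries of mouse 948 summed. Apart, those 2 libraries had 22.6 and 192 CPM, the first inside the marrow range. The sarcoma of mouse 841, at 39.0 CPM, lay inside it too. The log2 difference was 1.58 ± 0.38 (SE, n = 4 against 9; edgeR adjusted p = 0.0274). The call was lost when any 1 of marrow 919 and sarcomas 948, 1267 and 1268_1270 was left out, with an adjusted p of up to 0.0950 and a log2 difference of 1.43 to 1.72 over all leave-outs. In all it was lost in 10 of 28 alternatives. The other 6 were scaling by plain library totals (1.57, adjusted p = 0.0515), the first sarcoma library of a mouse only (1.33, adjusted p = 0.145), both fits with the mouse as a block (0.99 and 0.97), and the fits without the 4 libraries low in long transcripts (1.71, adjusted p = 0.0778) and without these and 1268_1270 (1.86, adjusted p = 0.108).

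Mmp11, an enzyme associated with tumour stroma in carcinomas, was 26.1 CPM in sarcoma 1268_1270 against 1.25, 1.31 and 3.34 in sarcomas 948, 1267 and 2721. The marrows ranged from 0 through a median of 0.353 to 1.76 CPM. Only 6 of the 9 marrows lay below the lowest sarcoma. Over all mice the log2 difference was 3.50 ± 1.25 (SE, n = 4 against 9; edgeR adjusted p = 0.166), and it was 1.48 without 1268_1270.

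Mmp13, the interstitial collagenase of bone and cartilage, was 33.3 CPM in sarcoma 948 and 1.18, 1.95 and 0.844 in sarcomas 1267, 2721 and 1268_1270. The marrows ran from 0 through a median of 1.90 to 13.2 CPM. Apart from sarcoma 948, the SMC3+/- sarcomas lay inside the marrow range. The fit gave a log2 difference of 1.1 ± 1.3 (SE, n = 4 against 9; edgeR adjusted p = 0.866), and it turned to -1.68 without mouse 948.

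Mmp12, the elastase of macrophages, had 540 CPM in sarcoma 948, 137 in 1267, 238 in 2721 and 50.3 in 1268_1270. The marrows ranged from 0 through a median of 2.42 to 15.8 CPM, the last in mouse 3332. Every SMC3+/- sarcoma lay above every marrow. The log2 difference was 5.87 ± 1.1 (SE, n = 4 against 9; edgeR adjusted p = 0.00761). Without the 4 libraries low in long transcripts the difference was 6.40 and the adjusted p 0.0556. Some macrophage markers moved with it: 4 of 10 (C1qa, C1qb, C1qc and Mrc1) were higher in the SMC3+/- sarcomas, where 4.49% of all genes were, none was lower, and all 10 had counts in both tissues. The other 6 did not pass, among them Csf1r and Emr1 with log2 differences of -0.50 and -0.24. Their summed level was 144 to 683 CPM in the marrows and 733 to 1336 CPM in the SMC3+/- sarcomas. In sarcomas 948, 1267, 2721 and 1268_1270 it was 1336, 733, 1158 and 1071 CPM, highest in the sarcoma with the most Mmp12. The marker calls were not refitted without sarcoma 1268_1270 or the libraries low in long transcripts. The part of macrophage content in the Mmp12 result was not tested.

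For the stromal members the matching list was 10 fibroblast markers. Of these, 7 were higher in the SMC3+/- sarcomas, where 4.49% of all genes were, none was lower, and none was at 0 throughout a tissue. Their summed level was 4.72 to 301 CPM in the marrows and 1048 to 5161 CPM in the SMC3+/- sarcomas, highest in 1268_1270. Endothelial markers (4 of 8 higher), adipocyte markers (5 of 6) and skeletal muscle markers (5 of 7) also included called genes, against the same 4.49%. The 5 called muscle genes all overlapped the marrows, and the muscle markers of sarcoma 1267 summed to 7.19 CPM, below the marrows (7.91 to 77.9). None of the osteoblast and cartilage markers was called (4 of 8 tested, Bglap2 at 0 in all marrows and Sp7 in all SMC3+/- sarcomas). Of 7 osteoclast markers 4 were tested and 3 were higher (Acp5, Ctsk and Atp6v0d2), against the same 4.49%. Acp5 and Atp6v0d2 overlapped the marrows. Ocstamp, also tested, had a log2 difference of -2.70 and did not pass (edgeR adjusted p = 0.645), and Calcr was at 0 in all marrows. These marker calls were not refitted without sarcoma 1268_1270 or the libraries low in long transcripts. The part of these cell types in the Mmp2, Mmp3, Mmp14 and Mmp19 results was not tested.

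Across all 14 samples, Mmp3 ran closest to Cygb (r = 0.98), Eln, the elastin gene (0.98), and Mfap5, a microfibril protein gene (0.97). Mmp2 ran closest to Timp3, an inhibitor of metalloproteinases (0.95), Col4a1, a basement-membrane collagen (0.95), and Postn, the periostin gene (0.93). These are descriptions over samples of both tissues, which share the tissue difference, and carry no test.

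The make-up of the 10 genes' counts differed between the tissues, given here as a description without a test. Mmp8, Mmp9 and Mmp25 together held 89.7% to 99.8% of the member counts in the 9 marrows (median 97.6%). In the SMC3+/- sarcomas they held 49.4% in mouse 948 (95% Wilson interval 48.9 to 49.9), 22.4% in 1267 (21.7 to 23.0), 76.9% in 2721 (76.6 to 77.2) and 11.4% in 1268_1270 (10.7 to 12.1). All 4 were below the lowest marrow. These intervals cover counting error only. Mmp12 alone held 0% to 1.16% in the marrows, and 39.1%, 33.0%, 15% and 13.3% in sarcomas 948, 1267, 2721 and 1268_1270. The stromal members held up to 9.14% in the marrows, and 11.4%, 44.6%, 8.13% and 75.4% in the same sarcomas, so that sarcoma 2721 overlapped the marrows. The share of the neutrophil members per length of transcript was 91.7% to 99.8% in the marrows and 12% to 80.6% in the SMC3+/- sarcomas.

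**Figure D4:**
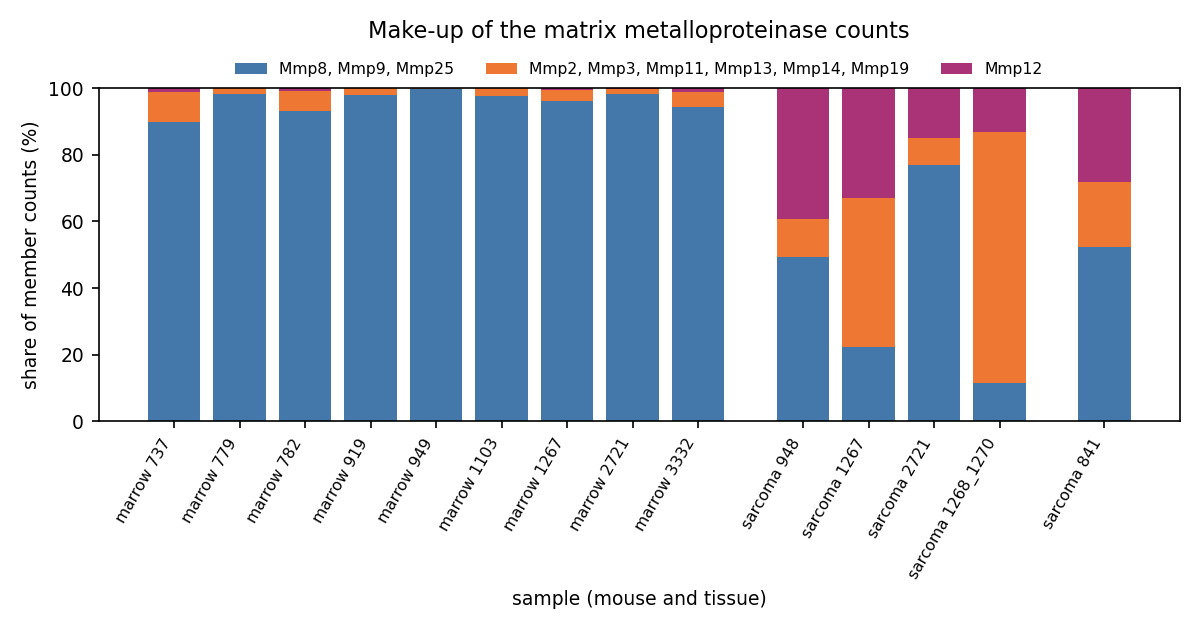
Share of the summed counts of the 10 matrix metalloproteinases in each of 14 samples (y axis, percent), with the neutrophil members in blue, the stromal members in orange and Mmp12 in purple. The blue part is 89.7% or more in the 9 marrows and 11.4% to 76.9% in the 4 SMC3+/- sarcomas.

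Levels were ordered between genes only after division by transcript length (CPM per kb). In the marrows Mmp9 stood first at 373 ± 330 (SD, n = 9) and Mmp8 next at 237 ± 212, a gap smaller than either spread. Mmp25 followed at 12.3 ± 17 CPM per kb and Mmp19 at 8.45 ± 4.25, again within their spread, and Mmp13, Mmp12, Mmp11, Mmp14, Mmp2 and Mmp3 lay at 1.60 or below. In the SMC3+/- sarcomas the order was Mmp8 (131 ± 145, SD, n = 4), Mmp12 (66.9 ± 59.1), Mmp9 (59.0 ± 71.6), Mmp19 (25.2 ± 5.38) and Mmp2 (11.8 ± 11.9). Mmp14 came next at 11 ± 7.39 CPM per kb, then Mmp3 at 8.01 ± 3.06, Mmp11 at 3.49, Mmp13 at 3.48 and Mmp25 at 1.1. In the marrows the steps from Mmp8 to Mmp25, from Mmp19 to Mmp13 and from Mmp2 to Mmp3 exceeded the larger SD of the pair. In the sarcomas the step from Mmp19 to Mmp2 did, and the other neighbours were closer than that. The lengths are those of the longest coding transcript in a later annotation.

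Mice 1267 and 2721 gave both tissues. On the log2 scale, sarcoma minus marrow of the same mouse was 4.23 and 3.77 for Mmp2 and 4.72 and 3.75 for Mmp14, in mice 1267 and 2721 in that order. Mmp3 was at 0 counts in both marrows. Against the 3 counts that a 0 allows in each marrow, it was at least 63.4-fold higher in the sarcoma of mouse 1267 and at least 94.7-fold higher in that of mouse 2721. Mmp19 differed by 1.26 and 0.73, and Mmp12 by 3.61 and 6.37. Mmp11 was at least 7.44-fold higher in mouse 1267, whose marrow was at 0, and differed by 1.17 in mouse 2721. These 6 members were higher in the sarcoma in both mice. Mmp25 was -3.60 and -3.71, Mmp9 -4.30 and -2.09, and Mmp8 -4.30 and -0.48, each lower in the sarcoma in both mice. Mmp13 was also lower in both, at -3.40 and -2.39, in contrast to its value over all mice. With the mouse as a block and all mice in the fit, edgeR called none of the members higher (Mmp12 had the smallest adjusted p among those with a positive difference, 0.0695), and over these 2 mice alone it called Mmp14 (adjusted p = 0.0409) and Mmp12 (0.0489) higher. Mmp25 was called lower in both blocked fits.

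The 2 sarcoma libraries of mouse 948 were farther apart than those of mouse 2721. The labels number them but do not say whether they are separate tumours. In mouse 948 the median absolute log2 difference was 1.90 over the 10 members and 1.06 over 10138 genes. In mouse 2721 the same values were 0.38 and 0.14. From the first to the second library of mouse 948, Mmp13 went from 1.38 to 84.9 CPM, Mmp12 from 72.5 to 1304 CPM, Mmp19 from 22.6 to 192 CPM and Mmp14 from 6.63 to 36 CPM. Mmp3 went the other way, from 19.8 to 3.58 CPM. The other 5 members differed less: Mmp11 by 1.13-fold, Mmp8 by 1.48-fold, Mmp2 by 1.68-fold, Mmp9 by 1.95-fold and Mmp25 by 2.63-fold. Beside this, the macrophage markers summed to 1263 CPM in the first library and 1629 in the second, the muscle markers to 2326 and 15.2 CPM, and the late neutrophil genes to 166877 and 58394 CPM, and the first library was 1 of the 4 low in long transcripts. Their part in the difference was not tested. In mouse 2721 the largest difference was in Mmp11, at 4.67 against 1.83 CPM.

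**Figure D5:**
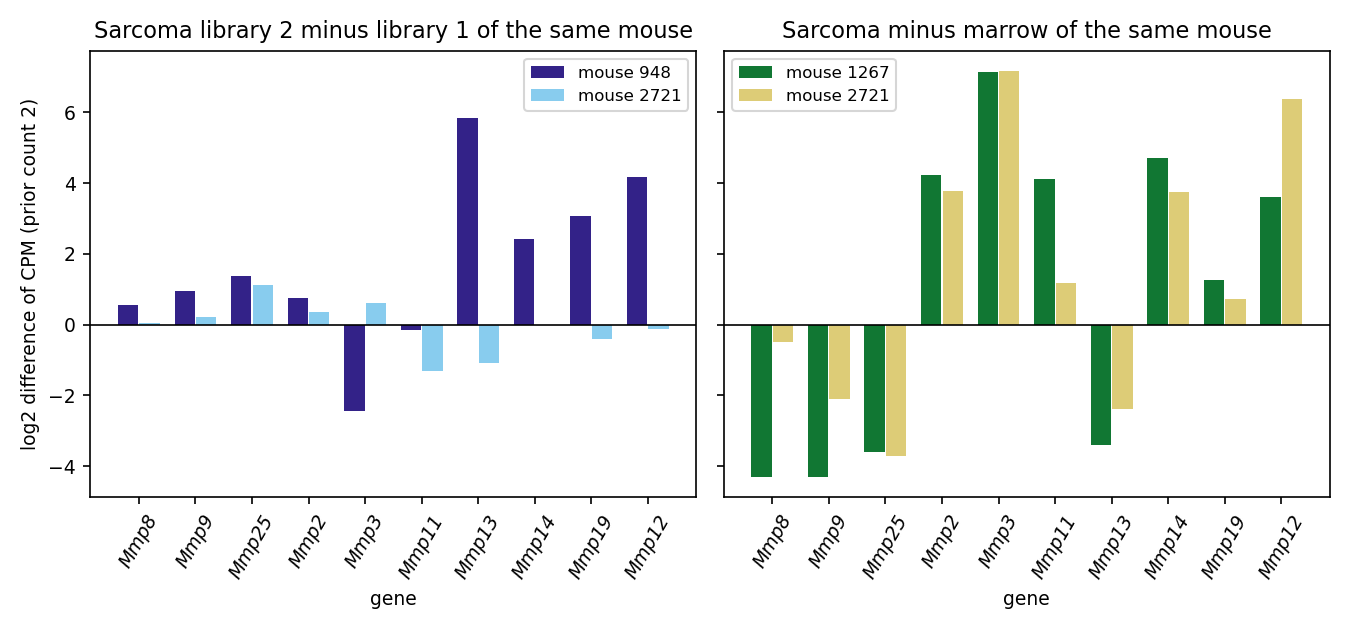
Log2 differences of CPM (prior count 2) for the 10 members within single mice: the second minus the first sarcoma library of mice 948 and 2721 on the left, and sarcoma minus marrow of mice 1267 and 2721 on the right. On the left Mmp13 and Mmp12 of mouse 948 reach 5.85 and 4.17, and on the right the 3 neutrophil members and Mmp13 point down in both mice, while the Mmp3 bars and the Mmp11 bar of mouse 1267 stand against marrows at 0 and are set by the prior count.

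Of the enzymes' 8 listed inhibitors, 6 were tested and 3 were higher in the SMC3+/- sarcomas, where 4.49% of all genes were. Timp1, which inhibits most secreted members, was 12.5 ± 5.98 CPM (SD, n = 4) against 0.100 ± 0.209 (n = 9), a log2 difference of 6.77 ± 1.21 (SE; edgeR adjusted p = 0.00497). Timp3, the inhibitor bound to the matrix, was 88.6 ± 107 CPM against 1.19 ± 1.58 (log2 difference 6.18, edgeR adjusted p = 0.00636). Pcolce, an enhancer of procollagen processing that also shares the inhibitory domain of the TIMPs, was 30.7 against 2.56 CPM (3.57, edgeR adjusted p = 0.0319). Timp2, which both inhibits Mmp2 and helps Mmp14 activate it, was 269 ± 191 against 88.1 ± 46.9 CPM and did not pass (edgeR adjusted p = 0.109). Leaving out sarcoma 1268_1270 took the 3 calls to 1. With the mouse as a block there were 0 in the fit of all mice and 1 in the fit of mice 1267 and 2721, the only mice that inform either. The median log2 difference of the list was 2.59.

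Among 14 genes for proteins that activate, induce or bind the enzymes, 13 were tested and 3 were higher, where 4.49% of all genes were. They were the proprotein convertases Pcsk5 (log2 difference 7.07, edgeR adjusted p = 0.0104) and Pcsk6 (7.69, 0.0144) and Plat, the tissue plasminogen activator (7.21, 0.0144). None was lower, and the list's median was 0.24. Pcsk6 overlapped the marrows, and without sarcoma 1268_1270, without the 4 libraries low in long transcripts, or with the mouse as a block, edgeR called none of the list. Lcn2, the lipocalin that binds Mmp9, was 1748 ± 1458 CPM in the SMC3+/- sarcomas (SD, n = 4) and 3626 ± 3148 in the marrows (n = 9), and Furin, the convertase that opens Mmp14, was 151 ± 103 against 108 ± 85.8. Neither passed the test (edgeR adjusted p = 0.768 and 0.942).

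Of 12 tested genes for matrix proteins that the enzymes cut, 10 were higher in the SMC3+/- sarcomas, where 4.49% of all genes were, and none was lower. The list's median log2 difference was 7.35. The called genes were Col1a1, Col1a2, Col3a1, Col4a1, Col4a2, Eln, Lamc1, Lama4, Nid1 and Dcn, which encode fibrillar and basement-membrane collagens, elastin, laminins, nidogen and decorin. Of these, Col1a1, Col1a2, Col3a1 and Dcn are also among the called fibroblast markers above, so the lists are not separate results. Some were nearly absent from the marrows, such as Eln (10 counts over 9 mice), Lama4 (23) and Nid1 (82). Such genes may have passed the filter only through the sarcomas, so that the count supports nothing about the list as a whole. The same limit applies to the marker, inhibitor and activator lists. Col3a1 had 629 ± 379 CPM in the SMC3+/- sarcomas (SD, n = 4) and 0.479 ± 0.684 in the marrows (n = 9), with an edgeR adjusted p of 0.000427. Fn1, the fibronectin gene, was 551 ± 571 against 1535 ± 2104 CPM, and Vcan, the versican gene, was 89.9 ± 142 against 161 ± 221. Neither passed, with log2 differences of -1.48 and -0.84. DESeq2 called 5 of the list. With the mouse as a block edgeR called 6 in the fit of all mice and 4 in the fit of mice 1267 and 2721, the only mice that inform either. Without blocks it called 6 after sarcoma 1268_1270 and the 4 libraries short of long transcripts were left out.

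Of the 13 other matrix metalloproteinase symbols in the table, 5 were tested and edgeR called none (DESeq2 called 2). The smallest p-values were those of Mmp23 (12.7 ± 15.8 against 0.937 ± 1.21 CPM, edgeR adjusted p = 0.101), Mmp15 (4.18 ± 7.38 against 0.225 ± 0.407, adjusted p = 0.179) and Mmp27 (3.97 ± 3.20 against 0.871 ± 0.840, adjusted p = 0.452), all SD over 4 sarcomas and 9 marrows. Mmp15 and Mmp23 were under an unadjusted p of 0.05. Mmp1a had no count in the SMC3+/- groups, and Mmp10, the nearest relative of Mmp3 in the cluster, had 50 counts over the SMC3+/- sarcomas and 0 in the marrows. How reads shared by such related genes were counted is not stated in the labels.

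The sarcoma of mouse 841, with wild-type SMC3, was set against the 4 SMC3+/- sarcomas as 1 sample assumed to vary as they do. No gene of 17762 was called in edgeR's test (0% called, 236 at an unadjusted p under 0.05), so that no member was. Mmp3 was the 1 member at an unadjusted p under 0.05. It had 1.94 CPM, below the 11.2 to 22.6 CPM of the others, a log2 difference of -2.90 ± 0.99 (SE; edgeR unadjusted p = 0.0247, adjusted p = 1.00). Mmp19 at 39.0 CPM and Mmp11 at 0.970 CPM were also below the range of the SMC3+/- sarcomas, and the other 7 members lay inside it, among them Mmp12 at 114 CPM, Mmp9 at 138 CPM and Mmp14 at 17.8 CPM. The neutrophil members held 52.3% of its member counts (95% Wilson interval 50.8 to 53.7), inside the range of the other sarcomas. Its single library gives no spread of its own, and mouse and genotype cannot be told apart.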

How the data were processed

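The authors deposited 1 table of raw counts per gene symbol for 16 polyA-selected libraries, with 23999 symbols, of which 2844 had no count. The submitters' processing notes name STAR, DESeq, DESeq2 and mm9 without version or role, and the annotation, the strand setting and the handling of reads that match several genes were not given in the sources used here. The members and gene lists were chosen with earlier results of these data known.

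Libraries of 1 mouse and tissue were summed, giving 14 samples, 1 for each mouse label and tissue. TMM factors from all 14 scaled the CPM values, and log2 CPM used a prior count of 2. The tissue test was edgeR 4.0.16 (R 4.3.3) quasi-likelihood with robust fitting, genes passing filterByExpr and Benjamini-Hochberg adjustment. SEs were taken from the log2 difference and its F statistic. The fit was tested on simulated data, as was the exact permutation test (two-sided) of correlations. Alternatives were DESeq2 1.42.0, limma-voom 3.58.1, 3 other scalings, other filters, left-out libraries and the mouse as a block. The paired tissues of mice 1267 and 2721 come from the labels, and their deviations from the tissue means correlated at 0.37 and 0.28 over 10138 genes. Named were all 10 members, called genes of each list (or the 3 of smallest p), and the 3 genes most like each of 5 members. Timp2, Lcn2, Furin, Fn1, Vcan, Mmp10 and Mmp1a were named after their values were seen. Protein sequences were not used here.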

Additional observations from a re-analysis of the deposited data

Results flagged for a closer look

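Mmp3 in marrow 919 stood apart from the other 8 marrows, at 0.153 CPM where the next had 0.0321 CPM. The value rests on 7 counts and the other on 1, while the remaining 7 marrows were at 0. In 5 of those 7 a count of 0 allows up to 0.155 to 0.282 CPM, above the level of marrow 919, so that the depth does not separate it from them. Mmp3 in sarcoma 1268_1270 stood apart from the other 3 SMC3+/- sarcomas, at 22.6 CPM where the next had 12.5 CPM. Dixon's test at 95% was run on log2 CPM (prior count 2) in 20 groups, 10 members in 2 tissues. It gave these 2, where chance gives about 1 in 20. On that scale the 7 marrows at 0 share 1 value set by the prior. Wide gaps in CPM, such as Mmp13 in sarcoma 948 (33.3 against 1.95) and Mmp11 in sarcoma 1268_1270 (26.1 against 3.34), were not flagged on it.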

How the results depend on the processing

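The edgeR result of 5 members higher and none lower (670 genes called) was recomputed under 28 alternatives. DESeq2 called 2 members lower (Mmp9 and Mmp25). With the mouse as replicate block and all mice in the fit, no member was higher and 1 (Mmp25) lower (130 genes). With only mice 1267 and 2721 in the fit, 2 were higher and 1 lower (71 genes). Each blocked fit had 1 residual degree of freedom and drew the tissue difference from mice 1267 and 2721 only. Leaving out the 4 libraries short of long transcripts left 3 members higher (Mmp2, Mmp3 and Mmp14, of 303 genes), and leaving out sarcoma 1268_1270 as well left the same 3 (of 62 genes). Scaling by pan-leukocyte genes called 7689 genes and 6 members, with Mmp11 added, and moved the median log2 difference of all genes to 2.01, with Mmp19 at 3.53, Mmp9 at -1.73 and Mmp25 at -2.28 on that scale. With no filter on low counts 1470 genes were called. Leaving out 1 sample (1 tissue of 1 mouse) at a time gave 170 to 765 genes, the lowest without sarcoma 1268_1270, and 4 or 5 members. No fit left out both tissues of mouse 1267 or of mouse 2721. In these 13 fits Mmp2, Mmp3, Mmp12 and Mmp14 were called in 13 and Mmp19 in 9. Mmp13 changed sign with the first sarcoma library of a mouse only (-1.50), under both blocked fits (-2.95 and -2.97) and on leaving out 1 sample (-1.68 to 1.56). Against the sarcoma of mouse 841, leaving out 1 sarcoma gave -1.50 to 1.64 for Mmp13 and -0.81 to 0.83 for Mmp9. Without marrows 737, 779 and 782 the correlations of Mmp8 with Mmp9 (0.80) and with Mmp25 (0.84) lost the threshold. The cause was not tested. Counts limit Mmp3, Mmp2 and Mmp14 in the marrows, where several mice were at 0.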
